A study of Mus musculus with 204 samples.

Results

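The lesser curvature is the short, upper border of the stomach, and its wall was profiled by RNA-seq of bulk tissue in 5 diet-induced obese (DIO) and 5 lean mice. These 10 libraries were chosen by the tissue name in their titles, out of a series of libraries from 21 tissues. All mice were wild-type C57BL/6J males. DIO mice ate a high-fat diet (60% fat, 20.0% protein, 20% carbohydrate) for 10 weeks from the age of 4 weeks, and lean mice stayed on standard chow (13.1% fat, 24.5% protein, 62.4% carbohydrate). The labels also give an age range on arrival that lies above that starting age, no separate age for the lean mice, and no link between a library and a mouse. The p-values below therefore measure the spread between libraries of a group. Values are read counts per 1e6 reads of the library (CPM), and 2029 of 13153 genes reached a mean of 10 CPM over the 10 libraries and were tested. The table used here covers chromosomes 1, 2, 3 and X and the first 40.3 Mb of chromosome 4, so 13 to 16.9% of each library's reads lie in it.

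The mouse stomach joins several tissues at the lesser curvature. Its glandular part is lined by surface mucous cells, with acid-secreting parietal cells, enzyme-secreting chief cells and hormone cells in the glands below. Its forestomach is lined by a keratinised squamous epithelium, and the oesophagus, whose wall holds striated muscle in the mouse, enters at the lesser curvature. The muscle coat of the stomach itself is smooth muscle. In bulk tissue, fewer cells of a type and less RNA per cell cannot be told apart.

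The label was checked against gastric epithelial genes, of which 11 of 29 are in the table and 10 were tested. For 8 of these 10, among them Chia1 (the acidic chitinase that mouse chief cells secrete) and Ctse (cathepsin E of surface mucous cells), no other tissue of the series had a higher mean. Chia1 averaged 2858 CPM over the 10 stomach libraries and at most 2.93 CPM in another tissue, and Ctse averaged 1607 CPM against at most 256.1 CPM (duodenum). Squamous genes were present in all 10 libraries as well: Sprr3, a protein of the cornified envelope, had 192.9 to 667.1 CPM in DIO libraries and 137.5 to 486.0 CPM in lean libraries. Genes of glandular and of squamous stomach were thus both present.

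The libraries varied widely within each diet, and the variation was unevenly spread over the diets. Total reads ran from 11.6 to 21.7 M per library (M, 1e6 reads). The first principal component of the tested genes, with 48.0% of the variance, set DIO 3, lean 2, lean 3 and lean 4 (scores of 10.99 to 20.27) apart from the other 6 libraries (-16.41 to -4.79). The 100 genes highest with this component had a median longest transcript of 936 bases, against 5270 bases for the 100 lowest and 3555 bases for all tested genes. The same 4 libraries had the highest summed level of 10 ribosomal protein pseudogenes, whose reads are shared with their parent genes: DIO libraries had 76.6 to 238.6 CPM and lean libraries 110.4 to 494.4 CPM. Since 3 of these 4 libraries are lean, this axis and diet overlap in part. Most genes leaned one way: 1551 of 2029 (76.4%) had a log2 fold above 0 for DIO over lean, and the median log2 fold was 0.20 on CPM as deposited and 0.01 after the libraries were rescaled by median-of-ratios factors. Folds below are on the log2(CPM + 1) scale and should be read against that shift of 0.20. Counts of folds above 0 should be read against the 76.4%. Such counts include genes that reached the filter through a single diet, and the filter favours the sign of their folds. With pseudogene level as a covariate the median log2 fold was 0.02. Without DIO 3, lean 2, lean 3 and lean 4 it was 0.05. Both fits were chosen after the data were seen, and the part of this axis in the shift was not tested.

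Of the 2029 genes, 1 passed an adjusted p of 0.05 in limma (0.0493%), and it was higher in DIO mice. That gene is Nnat, which encodes neuronatin, a small proteolipid of the endoplasmic reticulum membrane. Nnat is imprinted and transcribed from the paternal chromosome, and it is best known from the developing brain and from hormone-secreting cells. Nnat lies on chromosome 2 (GRCm38, chr2:157560078-157562522, plus strand), inside the gene Blcap, which is transcribed from the other strand (chr2:157556362-157571274). The annotation has 6 Blcap transcripts, and the 3 that span Nnat have it wholly in an intron. The libraries were made with a kit that keeps the strand, but the sources used here do not say whether counting used it.

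The start regions of both genes are shown because CG pairs, the sites of DNA methylation at imprinted genes, can be read off them directly. Each runs from 250 bases before to 50 bases after the start in RefSeq (GRCm38.p6), 5′ to 3′ on the gene's own strand, with every CG pair in capitals. Nnat's is chr2:157559828-157560127 on the plus strand and Blcap's is chr2:157566312-157566611 on the minus strand.
Nnat: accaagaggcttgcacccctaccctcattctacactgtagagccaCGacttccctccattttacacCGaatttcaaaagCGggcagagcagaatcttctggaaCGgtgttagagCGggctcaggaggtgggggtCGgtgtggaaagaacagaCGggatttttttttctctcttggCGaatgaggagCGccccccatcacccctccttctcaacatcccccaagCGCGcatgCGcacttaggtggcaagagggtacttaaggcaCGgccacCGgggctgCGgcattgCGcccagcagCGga
Blcap: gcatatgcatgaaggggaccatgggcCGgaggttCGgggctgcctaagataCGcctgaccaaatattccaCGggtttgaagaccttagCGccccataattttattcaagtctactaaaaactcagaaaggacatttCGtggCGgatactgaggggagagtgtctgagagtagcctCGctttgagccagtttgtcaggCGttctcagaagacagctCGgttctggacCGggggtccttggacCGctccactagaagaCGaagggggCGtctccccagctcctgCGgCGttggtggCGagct
A search for CG, which reads the same on both strands, found 17 in each window. As many or more were in 31.4% of 32851 promoter windows of the same length, with a median of 7. The 2 windows held the same number of CG pairs, and no methylation was measured.

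Nnat had 21.05, 30.5, 24.6, 8.92 and 29.8 CPM in DIO libraries 1 to 5, and 3.64, 1.75, 3.70, 1.38 and 1.71 CPM in lean libraries 1 to 5. Every DIO library lay above every lean library, and the lowest DIO value, DIO 4, was still above the highest lean value. These values rest on 103 to 558 reads per DIO library and 24 to 79 reads per lean library. Nnat averaged 23.0 ± 8.75 CPM in DIO mice and 2.43 ± 1.13 CPM in lean mice (SD, n = 5 each), a log2 fold of 2.75 (SE 0.35) with an adjusted p of 0.00482 in limma. The count tests gave larger folds: edgeR 3.06 with an adjusted p of 0.00717 and DESeq2 3.06 with an adjusted p of 3.4e-14. Leaving out any 1 library kept the fold between 2.63 and 3.05 and the call. Nnat reached the filter through its DIO libraries, and with no filter its adjusted p was 0.0200 in limma.

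Blcap, the gene around Nnat, encodes a protein first described in bladder cancer and had 35.9, 41.4, 34.1, 36.0 and 34.1 CPM in DIO libraries, and 36.5, 36.7, 34.7, 31.2 and 40.0 CPM in lean libraries. Its groups overlapped over nearly their whole range, and its log2 fold of 0.02 (SE 0.14) had an adjusted p of 0.938 in limma. This fold was below 0 after rescaling, at -0.17.

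**Figure D1:**
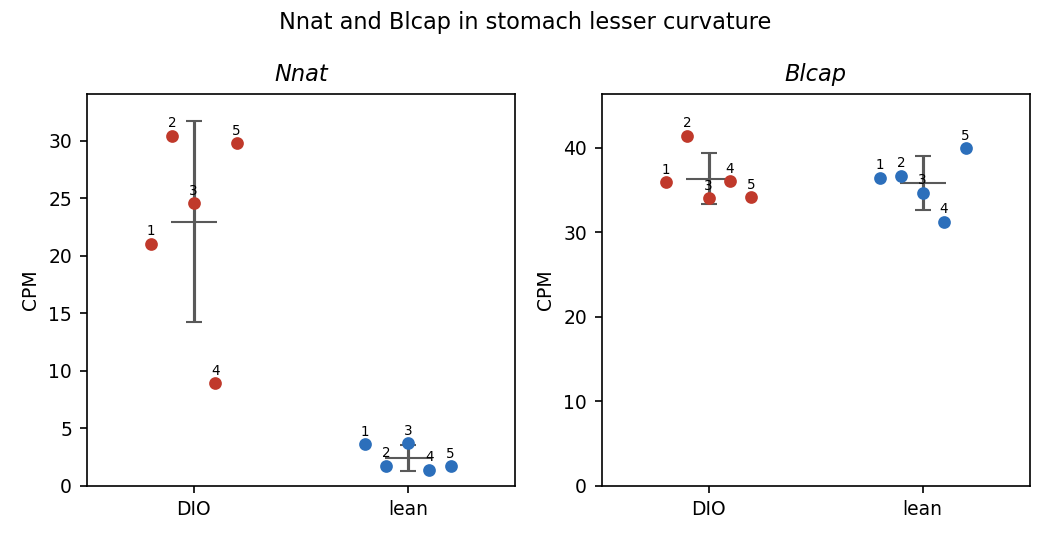
CPM of Nnat and Blcap in each stomach lesser curvature library (points, numbered by library), DIO on the left and lean on the right of each panel, with the mean and SD. The DIO points of Nnat run from 8.92 to 30.5 CPM, all above the lean points of 1.38 to 3.70 CPM, while the points of Blcap lie between 31.2 and 41.4 CPM in both diets.

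The libraries that stood apart were also set aside, a choice made after the data were seen. Among the 4 libraries of high pseudogene level, Nnat had 24.6 CPM in DIO 3 and 1.38 to 3.70 CPM in lean 2 to 4. Among the other 6, it had 8.92 to 30.5 CPM in the 4 DIO libraries and 1.71 to 3.64 CPM in lean 1 and lean 5. A fit to those 6 libraries alone gave a log2 fold of 2.60 with an adjusted p of 0.538 in limma, so the call was lost with 4 DIO against 2 lean libraries. With the level of 4 skeletal muscle genes as a covariate the fold was 3.15 and the adjusted p 0.0559 in limma.

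Markers of cell types that express Nnat elsewhere overlapped between the diets. The highest mean of Nnat in the series was in subcutaneous fat (934.5 CPM), and in the stomach the summed level of 9 adipocyte genes was 347.0 to 863.5 CPM in DIO libraries and 647.0 to 976.4 CPM in lean libraries. Neuronal and glial genes (11 in the table) summed to 33.8 to 62.5 CPM in DIO libraries and 28.1 to 45.3 CPM in lean libraries, which overlap. Endocrine cell genes (13 in the table) summed to 167.0 to 261.7 CPM in DIO libraries and 151.6 to 255.3 CPM in lean libraries. The neuronal genes Snap25 and Stmn2 and the endocrine gene Gcg were under the level filter. The part of these cells in the Nnat difference was not tested.

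Across the 21 tissues, all DIO libraries lay above all lean libraries for Nnat in 5 tissues and below them in 1, and overlapped in 15. Besides the stomach, the higher tissues were brown fat, with a median of 41.9 CPM in DIO and 1.97 CPM in lean libraries, mesenteric fat (1096 CPM in DIO, 272.9 CPM in lean), kidney (3.44 CPM in DIO, 0.395 CPM in lean) and adrenal (191.4 CPM in DIO, 72.98 CPM in lean). Epididymal fat ran the other way, with a median of 348.4 CPM in DIO and 1554 CPM in lean libraries. The brain regions, where Nnat was high in both diets, overlapped: hypothalamus had a median of 251.5 CPM in DIO and 257.3 CPM in lean libraries.

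In the gut below the stomach Nnat did not separate by diet. Its median was 1.78 CPM in DIO and 1.76 CPM in lean libraries of duodenum, and 3.97 CPM in DIO and 3.82 CPM in lean libraries of jejunum. In lean mice the stomach libraries overlapped those of duodenum and jejunum, and in DIO mice they lay above both. Nnat was higher in ileum and colon. There, DIO libraries had 6.33 to 9.91 CPM in ileum and 5.26 to 12.65 CPM in colon, so stomach DIO 4 (8.92 CPM) lay within both ranges. Lean libraries had 2.19 to 15.51 CPM in ileum and 3.82 to 33.72 CPM in colon. The ileum median was 7.35 CPM in DIO and 3.84 CPM in lean libraries. Its overlap came from lean 4 alone (15.51 CPM), since the other lean ileum libraries reached 5.49 CPM at most. In colon the median was 7.77 CPM in DIO and 10.32 CPM in lean libraries. Nnat fell under the filter of 10 CPM in the joint fits of 2 tissues, so the difference between tissues was tested at a mean of 1 CPM. The diet fold of Nnat was 2.63 (SE 0.43) larger in stomach than in duodenum, with an adjusted p of 0.0142 in limma, and it was the 1 gene called of 3375. It was 2.91 (SE 0.47) larger than in jejunum, with an adjusted p of 0.00235 in limma.

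**Figure D2:**
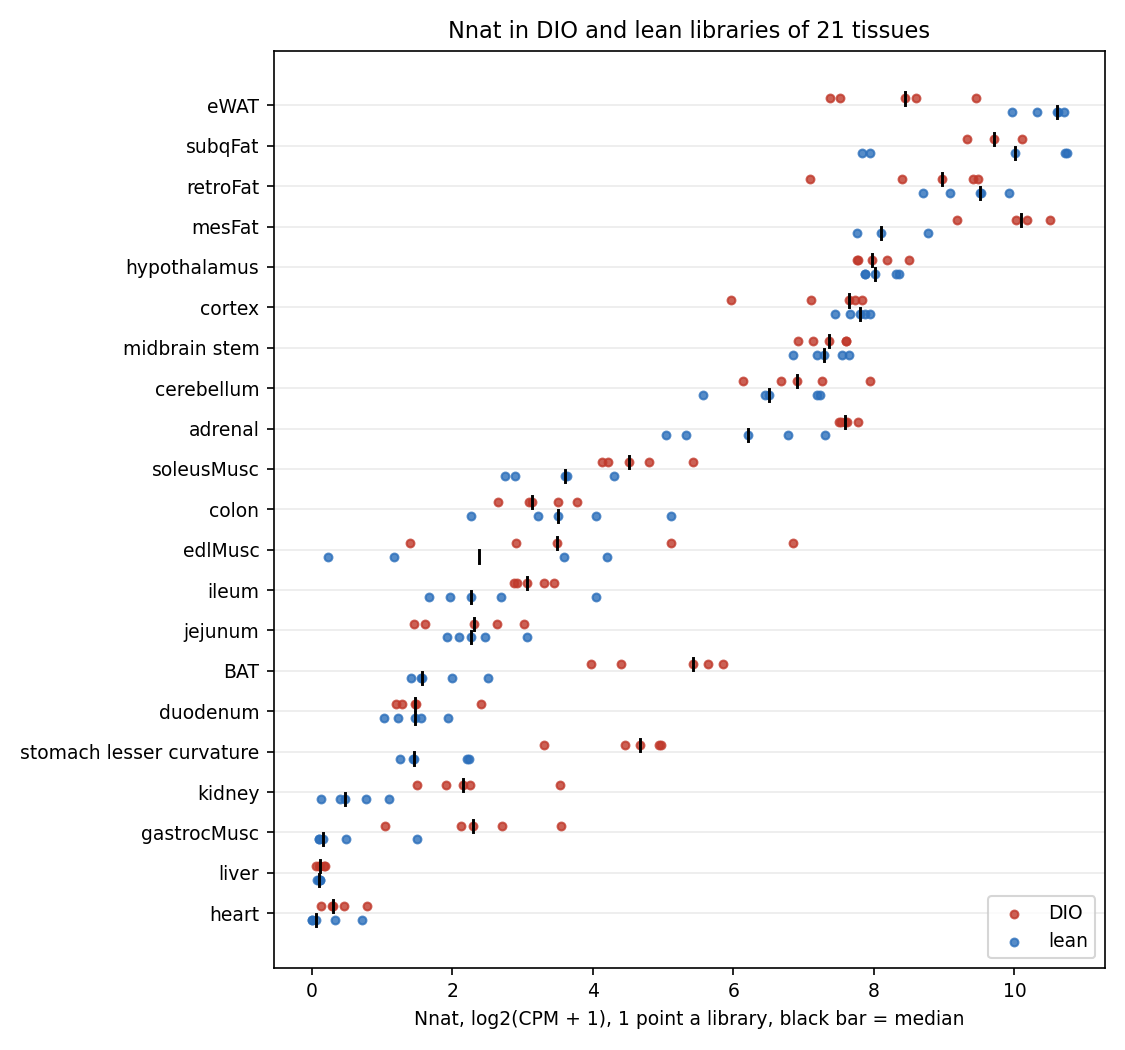
Nnat as log2(CPM + 1) in every library of the 21 tissues, DIO above lean in each row, with tissues ordered by their lean median and a black bar at each median. The stomach row has its 5 DIO points, from 8.92 to 30.5 CPM, to the right of its 5 lean points, as do brown fat, mesenteric fat, kidney and adrenal, while epididymal fat is the reverse.

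Without adjustment, 182 of 2029 genes (8.97%) had a p under 0.05 in limma. After Nnat the lowest adjusted p was 0.420, so none of the genes described from here on passed in limma and they are given as values. Only 8 genes separated the groups fully, 4 higher (0.197%) and 4 lower (0.197%) in DIO. Besides Nnat, the higher ones were Dram2, Atg4a and Tmem87a. Dram2, a lysosomal membrane protein linked to autophagy, had 60.7 to 75.2 CPM in DIO libraries and 36.2 to 60.4 CPM in lean libraries, so the groups nearly touched. Its log2 fold was 0.48 (0.28 after rescaling). Atg4a, a protease that processes autophagy proteins, had 17.2 to 22.4 CPM in DIO libraries and 11.4 to 15.7 CPM in lean libraries, a log2 fold of 0.44 (0.25 after rescaling). Tmem87a had 47.1 to 50.03 CPM in DIO libraries and 38.8 to 47.1 CPM in lean libraries, so the groups all but touched, and its log2 fold of 0.18 became -0.01 after rescaling.

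The 4 genes lower in every DIO library were Tnnc2, Pmvk, Fpgs and Gon4l. Pmvk, the phosphomevalonate kinase of cholesterol synthesis, had 22.9 to 30.8 CPM in DIO libraries and 31.1 to 41.7 CPM in lean libraries (log2 fold -0.35). Fpgs, which adds glutamates to folate, had 17.4 to 23.9 CPM in DIO libraries and 25.2 to 30.2 CPM in lean libraries (log2 fold -0.34). Gon4l had 21.3 to 24.1 CPM in DIO libraries and 24.2 to 31.2 CPM in lean libraries (log2 fold -0.30). These 3 differences are small and ran against the general shift. Rescaling lowered the median fold of all genes, and these folds fell with it, to -0.54, -0.53 and -0.49. That they are still below 0 is therefore no separate check.

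Genes of striated muscle were low in several DIO libraries, and none passed in limma. Tnnc2 encodes troponin C of fast skeletal muscle, the calcium sensor of its thin filament. It had 194.9, 208.0, 147.2, 52.8 and 75.04 CPM in DIO libraries, and 211.2, 1530, 964.0, 483.7 and 293.0 CPM in lean libraries. Lean 2 and lean 3 were far above the rest, and lean 1 lay just above the highest DIO library. The log2 fold was -2.16 (SE 0.52), with an adjusted p of 0.472 in limma and 0.00514 in DESeq2.

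All 4 tested skeletal muscle genes had log2 folds below 0, where 23.6% of all tested genes did, with a median of -1.39 against 0.20 for all genes. Myl1, a fast myosin light chain, had 26.7 to 102.0 CPM in DIO libraries and 80.9 to 244.7 CPM in lean libraries. Ttn, the giant spring protein titin, had 18.1 to 139.1 CPM in DIO libraries and 60.8 to 169.0 CPM in lean libraries. Neb, the thin filament ruler nebulin, had 8.64 to 69.3 CPM in DIO libraries and 22.8 to 85.6 CPM in lean libraries. For these 3 genes DIO 3, DIO 4 and DIO 5 were low, while DIO 1 and DIO 2 lay among the lean libraries. The other 9 list members in the table, Tnni1, Mylk2, Mybph, Myog and Chrna1 among them, were under the filter.

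A pair of further striated muscle genes were chosen after their values were seen. Myoz2, a Z-disc protein, had 6.17, 14.4, 3.75, 2.25 and 2.57 CPM in DIO libraries, and 12.4, 26.1, 31.6, 16.05 and 18.7 CPM in lean libraries. Only DIO 2 lay above a lean library, and the log2 fold was -1.87 (SE 0.40, adjusted p of 0.420 in limma). Myoz2 reached the filter through its lean libraries, and with no filter its adjusted p was 0.640 in limma. Actc1, cardiac actin, had 28.2, 19.7, 8.41, 6.93 and 9.58 CPM in DIO libraries, and 28.8, 88.7, 68.3, 25.9 and 37.0 CPM in lean libraries. Here DIO 1 lay above lean 4, and the log2 fold was -1.73 (SE 0.40, adjusted p of 0.472 in limma). A list of 13 striated muscle genes gathered for their low p, among them Xirp2, Casq1, Smpx and Klhl41, had a median log2 fold of -1.43, which is a description only.

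DESeq2 on the reads recovered from the CPM called 18 of 2026 genes (0.888%), 2 higher (0.0987%) and 16 lower (0.79%) in DIO. The 16 included Myoz2, Actc1, Tnnc2, Myl1, Casq1, Xirp2 and Smpx, all of striated muscle, and edgeR called none of them. The higher ones were Nnat and Maoa, a monoamine oxidase of the outer mitochondrial membrane. Maoa had 18.1, 24.6, 9.44, 23.1 and 19.7 CPM in DIO libraries, and 9.66, 6.91, 8.12, 11.4 and 9.25 CPM in lean libraries, so DIO 3 lay within the lean range. Its log2 fold was 0.94, with an adjusted p of 0.472 in limma and 0.0342 in DESeq2. Maoa reached the filter through its DIO libraries. Summed over the 13 skeletal muscle genes in the table, DIO libraries had 132.1 to 537.9 CPM and lean libraries 470.5 to 2011 CPM. How much striated muscle each piece of tissue held, and its part in these values, was not tested.

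Weighting the libraries or borrowing spread from other tissues called many more genes. With array weights, which let limma count less variable libraries more, 1212 genes passed (59.7%), 1055 higher (52%) and 157 lower (7.74%) in DIO. The weights ran from 0.31 for DIO 3 to 4.25 for DIO 4, and from 0.31 for lean 1 to 5.18 for lean 3, so DIO 4 and lean 3 counted most in that fit. A single fit over every library of the series, which takes its spread from all tissues, called 335 genes (16.5%), 268 higher (13.2%) and 67 lower (3.3%). All 4 tested skeletal muscle genes were among the lower ones with array weights, as Car2, Dram2 and Maoa were among the higher ones.

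**Figure D3:**
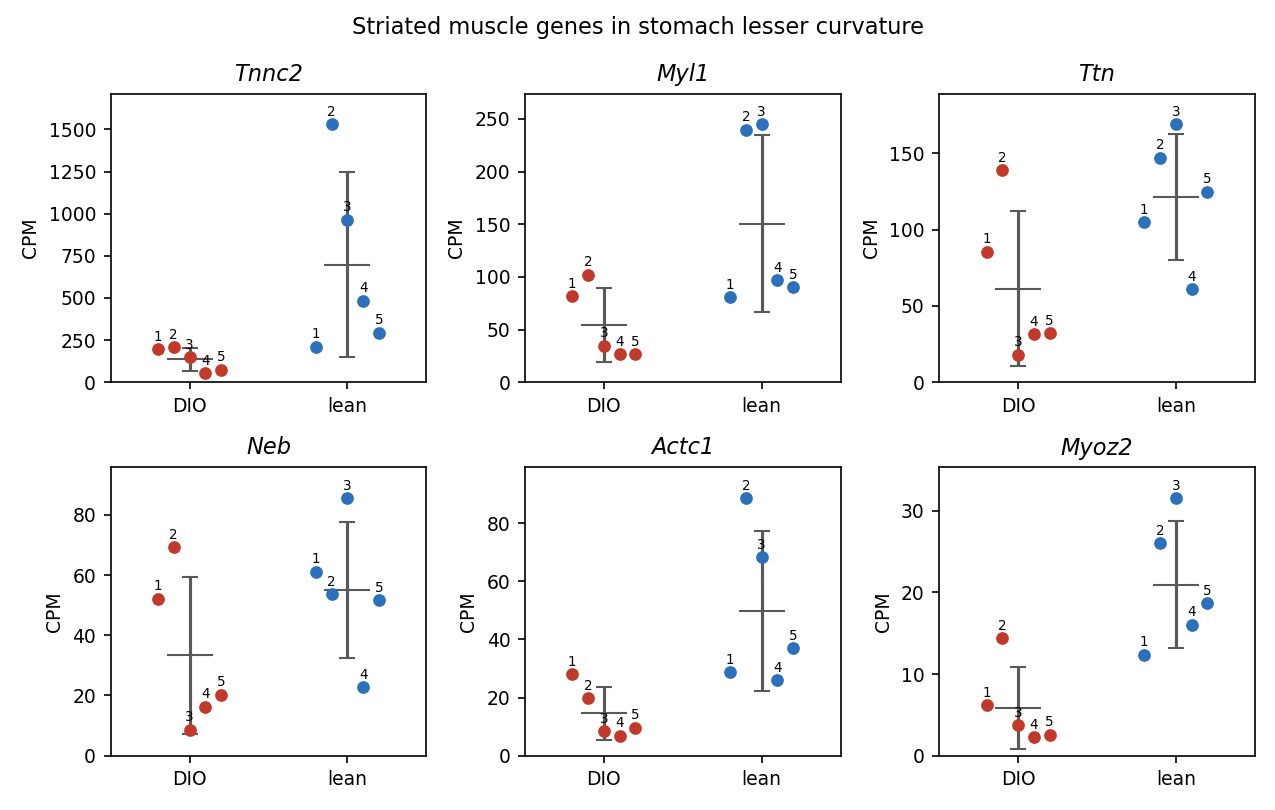
CPM of 6 striated muscle genes in each library (points, numbered by library), DIO left and lean right in each panel, with the mean and SD. Lean 2 and lean 3 are the highest points of Tnnc2, Myl1, Actc1 and Myoz2, and DIO 3, DIO 4 and DIO 5 are low in all 6 panels.

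The glandular epithelium gave log2 folds above 0 throughout, with no gene called. All 10 tested gastric genes were above 0, where 76.4% of all tested genes were, and their median was 0.36 (0.17 after rescaling). Car2, the carbonic anhydrase that supplies protons for acid secretion, had 1499, 1849, 1238, 1578 and 1410 CPM in DIO libraries, and 1428, 965.7, 826.6, 592.9 and 1047 CPM in lean libraries. Only lean 1 reached into the DIO range. Its log2 fold was 0.69 (SE 0.24), with an adjusted p of 0.472 in limma.

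All 4 tested parietal cell genes lay above the shift of all genes, with a median of 0.56 (0.36 after rescaling). The lowest, Ckmt1 at 0.21, was barely above the shift of 0.20. Ckmt1 and Esrrg are not particular to the stomach, with higher means in jejunum and in soleus muscle, respectively. Esrrg, a nuclear receptor of parietal cells, had 37.6 to 108.3 CPM in DIO libraries and 16.7 to 160.9 CPM in lean libraries, with lean 1 the highest of all 10. Slc9a4, the sodium-proton exchanger of their basolateral membrane, had 102.2 to 183.1 CPM in DIO libraries and 71.8 to 175.8 CPM in lean libraries. Slc26a7, a chloride-bicarbonate exchanger under the filter, had 6.59 to 13.1 CPM in DIO libraries and 4.14 to 16.4 CPM in lean libraries. In Esrrg, Slc9a4 and Slc26a7 alike, lean 1 stood among or above the DIO libraries, and DIO 3 near the lean ones.

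Surface mucous cell genes had a median log2 fold of 0.40, with 7 of 7 above 0. Ctse had 1205, 1950, 1490, 1954 and 2951 CPM in DIO libraries, and 2086, 1177, 1330, 900.1 and 1026 CPM in lean libraries. Lean 1 and lean 3 lay within the DIO range. Vsig1, a junction protein of gastric epithelium, had 272.9 to 472.9 CPM in DIO libraries and 132.5 to 511.9 CPM in lean libraries (log2 fold 0.61, adjusted p of 0.472 in limma). Mal, a protein of apical transport, had 498.6 to 823.1 CPM in DIO libraries and 413.8 to 539.8 CPM in lean libraries (log2 fold 0.45). Muc1, a membrane mucin, had 305.1 to 574.8 CPM in DIO libraries and 251.1 to 523.8 CPM in lean libraries, with a log2 fold of 0.20 that was 0.00 after rescaling.

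Chief cells are represented here by Chia1 and Creb3l1. Creb3l1 is not particular to the stomach, with a mean of 74.5 CPM there and 274 CPM in colon. Chia1 had 5531, 2755, 1988, 2531 and 2287 CPM in DIO libraries, and 5475, 1724, 1578, 2192 and 2514 CPM in lean libraries. Library 1 of each diet stood far above the other 4, and the remaining ranges overlapped. Endocrine genes had a median log2 fold of 0.13. Hdc, the enzyme that makes histamine in enterochromaffin-like and mast cells, had 14.1 to 23.3 CPM in DIO libraries and 10.99 to 21.6 CPM in lean libraries.

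In the squamous list 11 of 17 tested genes had log2 folds above 0, with a median of 0.42 and a range of -0.36 to 0.65. The barrier genes Lor (loricrin) and Rptn (repetin) differed within each diet more than between them: Lor had 102.2 to 418.9 CPM in DIO libraries and 107.5 to 284.9 CPM in lean libraries, and Rptn 109.8 to 376.1 CPM in DIO libraries and 178.4 to 266.3 CPM in lean libraries. DIO 2 was the highest and DIO 5 the lowest of all 10 libraries for both. Chil4, a chitinase-like secreted protein, varied widely, from 13.5 to 1374 CPM in DIO libraries and from 50.9 to 535.9 CPM in lean libraries, with a log2 fold of -0.05.

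No gene of the stomach wall lists passed. Visceral smooth muscle genes had a median log2 fold of 0.30 (0.10 after rescaling), with 8 of 10 above 0. Myl9, a smooth muscle myosin light chain, had 657.3 to 966.1 CPM in DIO libraries and 466.7 to 907.0 CPM in lean libraries. Des, the intermediate filament desmin that striated muscle shares, was among the 2 below 0, with 939.7 to 1262 CPM in DIO libraries and 972.0 to 1521 CPM in lean libraries. Extracellular matrix genes had a median of 0.40 (0.21 after rescaling), with 14 of 17 above 0. Postn, the matrix protein periostin, had 135.6, 177.9, 85.4, 157.0 and 130.7 CPM in DIO libraries, and 99.6, 74.7, 76.3, 66.0 and 124.0 CPM in lean libraries. DIO 3 lay within the lean range, and the log2 fold was 0.63 (SE 0.22, adjusted p of 0.472 in limma). Col4a5, a basement membrane collagen, had 9.38 to 22.7 CPM in DIO libraries and 4.66 to 17.4 CPM in lean libraries (log2 fold 0.87). Col4a5 has the largest fold of the matrix list and reached the filter through its DIO libraries.

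**Figure D4:**
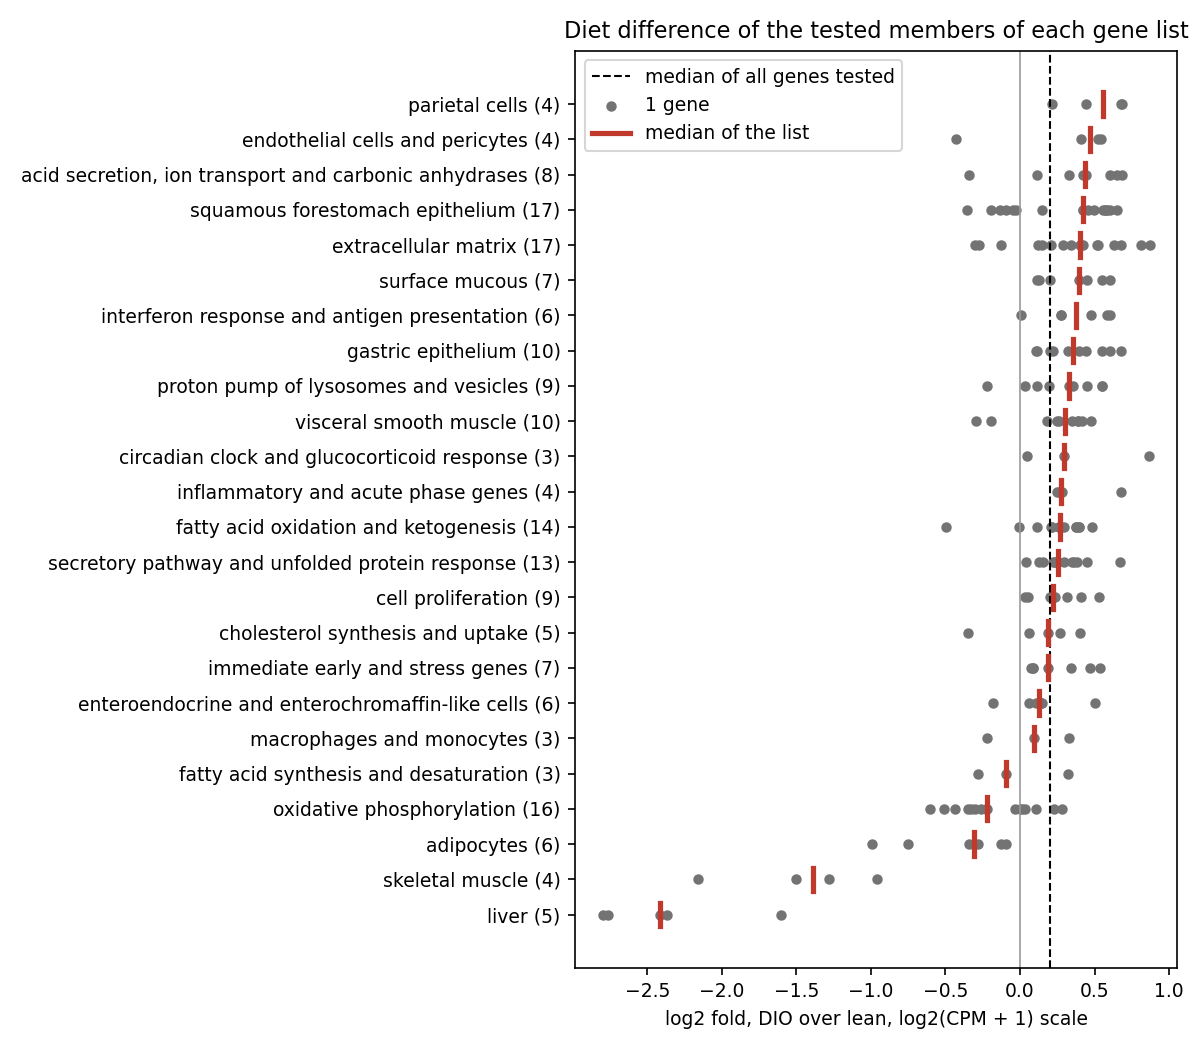
Log2 fold of DIO over lean for each tested member (grey points) of the gene lists with 3 or more tested members, with the median of each list (red bar), the median of all 2029 genes (dashed line at 0.20) and 0 (solid line). The number after each name is that of its tested members. Skeletal muscle and liver lie far to the left (4 of the 5 liver genes reached the filter through lean libraries alone), and adipocyte and oxidative phosphorylation genes lie left of the dashed line.

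Genes of neighbouring organs were present in some libraries of both diets. Apoa2, an apolipoprotein secreted by hepatocytes, had 2.65, 2.62, 2.39, 1.64 and 90.4 CPM in DIO libraries, and 24.8, 2.33, 104.9, 38.0 and 497.9 CPM in lean libraries. Lean 5 was highest, and DIO 1 to 4 and lean 2 were near 0. Fgb, a fibrinogen chain, gave 15.4 CPM in DIO 5 and 172.1 CPM in lean 5 and 0 CPM in DIO 3 and DIO 4. The 10 liver genes in the table summed to 152.5 CPM in DIO 5 and 4.55 to 7.97 CPM in the other DIO libraries, and to 59.3, 6.11, 185.1, 66.5 and 1182 CPM in lean libraries 1 to 5. Liver genes were thus above the lowest levels in 1 DIO and 4 lean libraries. Of the 5 that were tested, 4 reached the filter through the lean libraries alone, so the sign of their folds follows from the filter. The pancreatic lipase Cel had 20.8 CPM in DIO 3 and 63.1 CPM in lean 4, where the carboxypeptidase Cpb1 also had its highest values, 22.8 and 58.3 CPM. None of these genes passed.

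Intestinal genes, gathered after their values were seen, had folds above 0 in 7 of 7, with a median of 0.80 (0.60 after rescaling). Vil1, the microvillus protein villin, had 72.5, 100.6, 55.8, 104.3 and 82.4 CPM in DIO libraries, and 25.4, 49.6, 40.2, 62.3 and 65.3 CPM in lean libraries. DIO 3 alone reached into the lean range. Clca1, secreted by goblet cells, had 544.7 to 1300 CPM in DIO libraries and 81.8 to 644.6 CPM in lean libraries. Fabp2, the fatty acid binding protein of enterocytes, had 117.6 to 294.9 CPM in DIO libraries and 29.3 to 376.7 CPM in lean libraries. Lean 1 was the lowest of the 10 libraries in all 3 genes. Alpi, the list member of largest fold (1.42), reached the filter through its DIO libraries.

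Adipocyte genes were below 0 in 6 of 6, with a median log2 fold of -0.31 (-0.51 after rescaling). Fabp4, the fatty acid binding protein of adipocytes, had 259.6, 367.6, 255.0, 162.2 and 148.4 CPM in DIO libraries, and 285.7, 517.3, 537.8, 451.1 and 220.8 CPM in lean libraries, with a log2 fold of -0.75 (SE 0.30, adjusted p of 0.472 in limma). Lean 2, 3 and 4 were above all DIO libraries. Adig, an adipocyte gene under the filter, had 1.71 to 3.604 CPM in DIO libraries and 3.635 to 17.02 CPM in lean libraries. Immune cells left few genes to test: 0 of 18 lymphocyte genes and 3 of 16 macrophage genes in the table passed the filter.

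**Figure D5:**
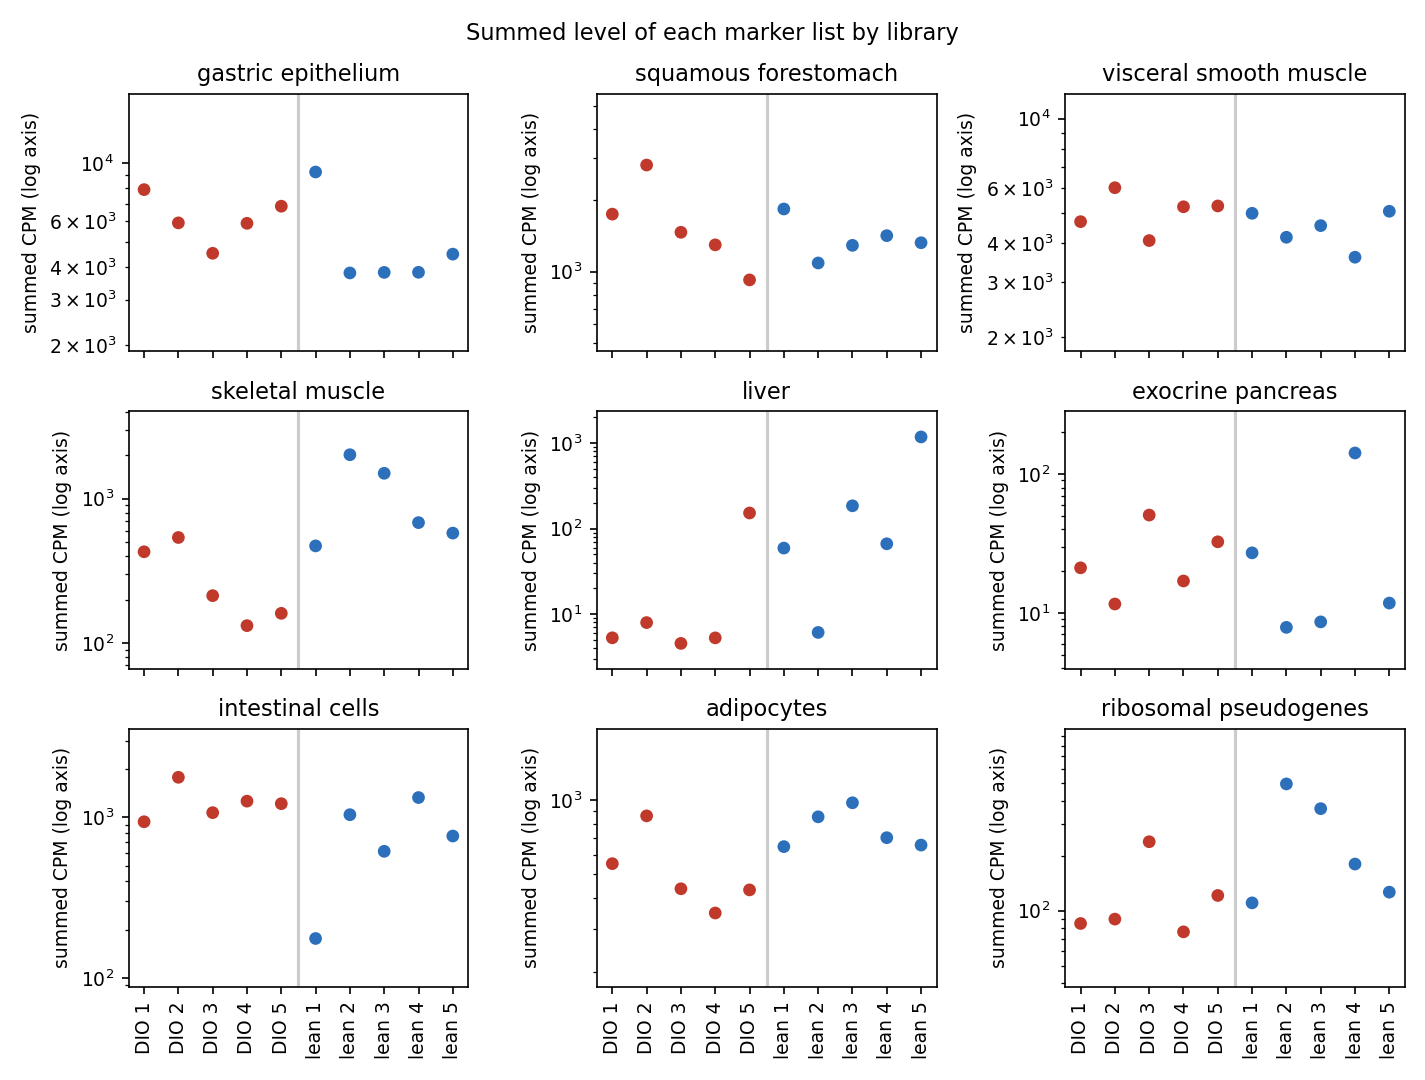
Summed CPM of the members of 9 lists (log axis) in DIO 1 to 5 (left of the grey line) and lean 1 to 5 (right of it). Liver genes reach 1182 CPM in lean 5, pancreas genes 141.9 CPM in lean 4 and skeletal muscle genes 2011 CPM in lean 2, and intestinal genes are lowest in lean 1 at 176.4 CPM.

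Of the metabolic lists, oxidative phosphorylation lay below the shift. In it, 10 of 16 genes were below 0 and 14 of 16 below the median of all genes, with a median log2 fold of -0.22 (-0.42 after rescaling). Ndufa1, a subunit of complex I, had 120.7 to 252.5 CPM in DIO libraries and 157.3 to 320.2 CPM in lean libraries, with DIO 3 the highest of its group. The median longest transcript of these 16 genes is 1148 bases, and the libraries that held more of short transcripts were 1 of 5 DIO and 3 of 5 lean libraries. The part of this in the difference was not tested.

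Genes of fatty acid oxidation, by which cells burn the fat a high-fat diet supplies, had folds above 0 in 12 of 14, with a median of 0.27 (0.07 after rescaling). Acadl, which starts the oxidation of long-chain fatty acids, had 206.8 to 238.0 CPM in DIO libraries and 134.8 to 216.3 CPM in lean libraries (log2 fold 0.37, adjusted p of 0.472 in limma). The cholesterol list had a median of 0.19 over 5 genes, and the fatty acid synthesis list -0.09 over 3.

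Ion transport and carbonic anhydrase genes were above 0 in 7 of 8, with a median of 0.43 (0.23 after rescaling). Car13, a cytosolic carbonic anhydrase, had 54.9, 64.05, 45.4, 62.1 and 60.1 CPM in DIO libraries, and 51.4, 31.2, 33.5, 31.5 and 34.8 CPM in lean libraries. Lean 1 alone reached into the DIO range, and after rescaling the groups separated (log2 fold 0.65, adjusted p of 0.472 in limma). Genes of lysosomes and their proton pump were above 0 in 8 of 9, with a median of 0.33 (0.14 after rescaling), and endothelial and pericyte genes in 3 of 4, with a median of 0.47.

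No gene of the remaining lists passed. Secretory pathway genes were above 0 in 13 of 13, with a median of 0.26 that was 0.06 after rescaling. Interferon genes were above 0 in 6 of 6, where 76.4% of all tested genes were, with a median of 0.38 (0.19 after rescaling). Their lowest fold was 0.005. The 17 list members in the table summed to 325.6 to 442.3 CPM in DIO libraries and 197.0 to 505.3 CPM in lean libraries. Among the tested members, the viral RNA sensor Ifih1 had 11.1 to 14.8 CPM in DIO libraries and 5.27 to 12.7 CPM in lean libraries. Ifih1 reached the filter through its DIO libraries. Proliferation genes had a median of 0.22 over 9 genes, 0.03 after rescaling. Per2, a repressor of the circadian clock, had 5.80 to 26.1 CPM in DIO libraries and 4.88 to 12.2 CPM in lean libraries. It too reached the filter through its DIO libraries. The clock and glucocorticoid list left 3 genes to test, Per2 among them, with a median of 0.30. Inflammatory genes had a median of 0.27 over 4 genes and immediate early genes 0.18 over 7. The enteric neuron list left L1cam alone (log2 fold 0.41), the mast cell list Hdc alone (0.11), and mesothelium 0 of 2 genes.

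The diet fold in stomach was set against that in jejunum and duodenum. Against jejunum, 62 of 2108 genes (2.94%) differed in limma. Bbox1, which completes carnitine synthesis, averaged 51.5 CPM in DIO and 2.65 CPM in lean jejunum, and 1.41 CPM in DIO and 2.13 CPM in lean stomach (difference of -3.87, adjusted p of 0.000482 in limma). Acadl averaged 303.8 CPM in DIO and 100.2 CPM in lean jejunum, a difference of -1.24 (adjusted p of 0.0095 in limma).

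Other genes were low in DIO jejunum and not in DIO stomach. Duox2, an oxidase of the mucosal surface, averaged 28.6 CPM in DIO and 71.3 CPM in lean jejunum, and 41.7 CPM in DIO and 35.5 CPM in lean stomach (difference of 1.54, adjusted p of 0.0446 in limma). Clca1 averaged 552.3 CPM in DIO and 1017 CPM in lean jejunum, a difference of 2.10 (adjusted p of 0.0472 in limma), and Vil1 1588 CPM in DIO and 2409 CPM in lean jejunum, a difference of 1.38 (adjusted p of 0.0469 in limma). The number called ran from 12 to 490 when 1 library was left out, being 490 without stomach lean 1, 423 without stomach DIO 3 and 12 without stomach DIO 4.

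Against duodenum, 0 of 2131 genes differed in limma at the filter of 10 CPM, 294 (13.8%) at an unadjusted p under 0.05, 0 in edgeR and 44 in DESeq2. Without duodenum lean 3 the count in limma was 162. The diet fold alone called 205 of 2021 genes (10.1%) in jejunum and 6 of 2075 (0.289%) in duodenum.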

How the data were processed

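RNA-seq of polyadenylated RNA (paired reads of 100 bases) was made from frozen tissue, per the labels. Values are the CPM that the authors deposited. FastQC, STAR, HTSeq and DESeq2 are listed, without versions, in the submitters' processing notes, and no genome build is given in the sources used here. Gene IDs were matched to GENCODE M21 (GRCm38): 13139 of 13153 matched. Dividing by the step of 1 read gave whole reads for 100.0% of values within 0.001 reads, and thereby total reads per library. Left out were 1 column that matches no sample and 1 gene with missing values.

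DIO was compared with lean in limma 3.58.1 (R 4.3.3, trended variance) on log2(CPM + 1). The 2029 genes averaged 10 CPM or more, and p was adjusted by Benjamini-Hochberg with a threshold of 0.05. Interactions with duodenum and jejunum used the same model on 20 libraries. Alternatives were a pseudocount of 5, no filter or 1 CPM, rescaling, array weights, edgeR 4.0.16 (TMM) and DESeq2 1.42.0 on recovered reads, a covariate for library type, a single fit over all libraries and leaving out each library. Scripts were tested on simulated data. No 2 stomach libraries of the same diet agreed within sampling noise (chi-square per degree of freedom of at least 14.5). Libraries of different diets were not compared in this way.

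Genes named are those called, those that separate the groups, the 4 members of lowest p in each list and detected markers, plus genes chosen after their values were seen (Maoa, Chil4, Per2, the genes that separate after rescaling, and the striated muscle, intestinal and pseudogene lists). Members and lists were chosen with earlier results of these data known. Of 32 lists, 2 form the index of library type used as a covariate.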

Additional observations from a re-analysis of the deposited data

Results flagged for a closer look

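In each diet's 5 libraries, a value was set aside when its gap to the nearest other library was more than 0.71 of the group's range (Dixon's rule). This picked out 16 of 118 groups of 5 libraries (13.6%). The rule's rate of about 1 in 20 holds for independent, normally distributed values. These are CPM of genes chosen for the text, in groups that share the same libraries, so that rate is no baseline here. Lean 5 stood apart for the liver genes Apoa2 (497.9 CPM, the other lean libraries 2.33 to 104.9) and Fgb (172.1 CPM). DIO 5 stood apart for Apoa2 (90.35 CPM, the other DIO libraries 1.64 to 2.65) and Fgb (15.4 CPM), and for Creb3l1 (128.0 CPM). Lean 1 stood apart for Chia1 (5475 CPM), Esrrg (160.9 CPM), Sprr3 (486.0 CPM) and Car13 (51.4 CPM), each above the other 4. DIO 1 stood apart for Chia1 (5531 CPM), and DIO 2 for Chil4 (1374 CPM), Blcap (41.4 CPM) and Gon4l (24.1 CPM). Lean 4 was high for the pancreatic gene Cel (63.1 CPM) and low for Atg4a (11.4 CPM), and lean 2 was high for Pmvk (41.7 CPM).

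The diet fold of some genes differed between the stomach and another tissue in limma. For Nnat it was larger in stomach by 2.63 than in duodenum (adjusted p of 0.0142) and by 2.91 than in jejunum (adjusted p of 0.00235), with the filter at a mean of 1 CPM. Against jejunum the differences in log2 fold were -3.87 for Bbox1, -1.24 for Acadl, -2.30 for Tnnc2, -1.92 for Casq1, 1.54 for Duox2, 1.38 for Vil1, 2.10 for Clca1, 0.968 for Ifih1, 0.974 for Galk2 and 0.808 for Agps, with adjusted p between 0.000482 and 0.0496. Tnnc2 is all but absent from jejunum (0.133 CPM in DIO and 0.0324 CPM in lean), while its stomach fold was -2.16. Nnat was higher in every DIO than lean library of the stomach and lower in every DIO library of epididymal fat (median 348.4 CPM in DIO and 1554 CPM in lean), and that difference between the tissues was not tested.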

How the results depend on the processing

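Nnat kept its direction under all 22 alternatives and its call in 20 of them, with log2 folds of 1.85 (pseudocount 5) to 3.15. The 2 that ended the call were added after the data were seen: the skeletal muscle covariate (adjusted p of 0.0559 in limma) and leaving out DIO 3, lean 2, lean 3 and lean 4 (adjusted p of 0.538 in limma), each with 0 genes called. The second has fewer samples, and the cause of the first was not tested. The number of genes called was 1212 with array weights, 335 in the single fit and 18 in DESeq2. It was 1 to 2 when a library was left out. Without DIO 2, Myoz2 passed too, a gene that reached the filter through its lean libraries. The genes that separated the groups fully were 18 after rescaling, 15 at a filter of 1 CPM and 8 to 98 without a library, with 98 without DIO 3, 78 without lean 1, 27 without lean 5, 20 without DIO 1, 19 without DIO 2 and 15 without lean 4. Against duodenum the calls were 4 with no filter, 1 at 1 CPM, 915 with array weights, 44 in DESeq2 and 0 to 162 without a library, 162 being without duodenum lean 3. Against jejunum they were 23 with no filter, 1214 with array weights, 222 in DESeq2, 136 with the index of library type and 12 to 490 without a library, and only leaving out jejunum lean 1 (53) kept the count within 1.5 times of 62. The cause of these moves was not tested. Folds near 0 changed sign. Tmem87a was -0.013 after rescaling, -0.014 in edgeR and -0.012 in DESeq2. Blcap was -0.17 after rescaling, -0.18 in edgeR, -0.18 in DESeq2, -0.022 with pseudogene level as a covariate, -0.052 without the 4 libraries and -0.026 to 0.061 without a single library. With the skeletal muscle covariate, which is built from them, Ttn was 0.23 and Neb 0.52. The fits with pseudogene or muscle level as a covariate and without the 4 libraries were chosen after seeing the data. No paired analysis was possible because the labels give no replicate numbers or mice that tie libraries to each other. The interaction fits with duodenum and jejunum therefore treated all 20 libraries as independent, and whether some share a mouse is not known. Nnat rests on as few as 24 reads in lean 2 and lean 4, which limits the precision of its lean level.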

Other observations

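After rescaling by median-of-ratios factors, 6 of the 2029 tested genes separated the groups with DIO above and 12 with DIO below. How many genes would separate by chance was not tested, so these genes are given as values. None but Nnat passed in limma on rescaled values. The higher ones besides Nnat and Car13 were Actr3, Agps, Galk2 and Acss1. Agps, a peroxisomal enzyme of ether lipid synthesis, had 104.9, 116.1, 85.6, 125.4 and 93.2 CPM in DIO libraries, and 78.5, 64.55, 61.5, 61.3 and 86.6 CPM in lean libraries as deposited, so DIO 3 lay below lean 5. Its log2 fold was 0.57, and 0.37 after rescaling. Of the 12 lower genes, 8 are the striated muscle genes described above (Tnnc2, Actc1, Myoz2, Xirp2) or others of the lists made after the values were seen (Ak1, Smtnl1, Eef1a2, Itgb1bp2). The other 4 were Psen2, Ppp2r5a, Acss2 and Amy1.

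The 2 acetyl-CoA synthetases in this set had folds of opposite sign. Acss1, the mitochondrial enzyme, had 105.5 to 175.3 CPM in DIO libraries and 94.1 to 128.6 CPM in lean libraries, a log2 fold of 0.41 (0.22 after rescaling). Acss2, the cytosolic and nuclear enzyme, had 25.3 to 43.7 CPM in DIO libraries and 33.2 to 52.8 CPM in lean libraries, a log2 fold of -0.28 (-0.48 after rescaling). Neither passed, with adjusted p of 0.472 for Acss1 and 0.487 for Acss2 in limma.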
